A study of Mus musculus with 8 samples.

Results

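The clustered protocadherins are cell-surface adhesion proteins of the cadherin superfamily, encoded in the mouse by 3 neighboring gene clusters, Pcdha, Pcdhb and Pcdhg. They were examined here in mesenchymal stem and progenitor cells (MSPCs) of the bone marrow, the stromal cells that produce the niche factors CXCL12 and SCF. The members were chosen by name and gene type: every row of the count table whose Ensembl identifier, without its version, carries a GENCODE symbol starting with Pcdha, Pcdhb or Pcdhg and is annotated as protein coding. This rule gave 57 of the 52636 genes in the table, 14 of them in Pcdha, 22 in Pcdhb and 21 in Pcdhg. The family was singled out with the difference between genotypes in these same libraries already known, so that every value of CTR against cKO is given as a description. Tests of this contrast are printed, but nothing is read from them. The sequences of the members are not printed.

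RNA was sequenced from the MSPCs of 4 CTR mice and 4 cKO mice, all of the C57BL/6 strain and given an age of 6 weeks in the labels, while the methods give an older range for all mice. CTR mice carry Flk2-cre with 1 conditional and 1 intact Cxcr4 allele (Flk2-cre+ Cxcr4fl/+), and cKO mice carry Flk2-cre with 2 conditional alleles (Flk2-cre+ Cxcr4fl/fl). Flk2-cre acts in hematopoietic progenitors and their progeny and not in MSPCs, so that the sorted cells are a neighbor of the cells in which Cxcr4 is deleted, and the CTR mice also carry Cre and a deletable allele. The sort kept cells with PDGFRα and with GFP from the Kitl locus, an allele present in both groups, and removed cells with CD45, Ter119, CD31 or CD144. The title of each sample holds a number whose meaning the labels do not give. The numbers are 67 to 86 for CTR1, CTR3, cKO1 and cKO3 and 26 to 32 for CTR2, CTR4, cKO2 and cKO4, which divides each genotype into 2 and 2.

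In neurons, where the family is best known, each cell transcribes a small subset of the members, and identical combinations on contacting membranes recognize each other, by which branches of the same cell avoid one another. Each Pcdha and Pcdhg gene has its own promoter and a large first exon that encodes the extracellular and transmembrane parts, which is spliced to constant exons shared by the whole cluster. The Pcdhb genes are single exons without a shared constant part. Promoter choice in neurons depends on the architectural protein CTCF, on cohesin and on DNA methylation, and the C-type members at the end of Pcdha and Pcdhg are under separate control.

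This gene structure bears on what a count of a single member means. In GENCODE M21 on GRCm38, the clusters lie on chromosome 18, on the plus strand, from 36930184 to 37187661 (Pcdha), 37264938 to 37524479 (Pcdhb) and 37661793 to 37841873 (Pcdhg). Each of the 14 Pcdha genes shared 2860 to 2864 exonic bases with other members, and each of the 21 Pcdhg genes shared 2116 to 3157. The median share of exonic bases that no other gene overlaps on either strand was 46.4% in Pcdha and 54.8% in Pcdhg, and Pcdhga10 had 0 such bases. Of the 22 Pcdhb genes, 19 had all their bases to themselves. Of the 1143 genes in the table with no base free of other genes on either strand, 775 had a count. Counting by strand could give some of these genes reads without dividing any, so the number does not show how shared reads were treated. The values of single Pcdha and Pcdhg members depend on how reads of shared bases were treated, which is not given in the sources used here. The Pcdhb values depend on it less. Sums over a cluster do not change with reads moved between members, but can change with reads of bases shared with genes that are no members. In Pcdhg, Pcdhgb8, annotated as a polymorphic pseudogene, overlaps 2116 bases of the members and had 9 to 4876 counts per library.

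Total counts were 31047344 to 38216877 per library. The MSPC markers were abundant in all libraries, with all 9 of them (among them Cxcl12, Lepr and Kitl) above 0 in every library and a summed level of 54910 to 68143 TMM-scaled CPM (counts scaled to a common library total). Cxcr4, the gene deleted in hematopoietic cells, was counted 4 to 19 times in each CTR library and 0 to 12 times in each cKO library, which does not check the genotypes because the sorted cells are not the cells in which Cre acts. All CPM values below use the TMM scaling, and an SD is over the 4 mice of a group. These are bulk samples, in which fewer expressing cells and less RNA per cell cannot be told apart.

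In MSPCs the counts were spread over most Pcdhb and all Pcdhg members and were few in Pcdha. A count of a single Pcdha or Pcdhg member can hold reads of shared exons, so it does not by itself show that this member was transcribed. Of the 57 members, 40 had a count in every library: 21 of 21 in Pcdhg, 19 of 22 in Pcdhb and 0 of 14 in Pcdha. Summed over the cluster, Pcdhg had 8897 to 17522 counts per library, Pcdhb 8911 to 10853 and Pcdha 138 to 451. In total the members had 19761 to 28606 counts per library. The 5 members at 0 in all libraries were Pcdha2, Pcdha3, Pcdha6, Pcdha9 and Pcdhb1, the first gene of its cluster. With at least 10 counts over the 8 libraries, 51 members entered the tests across genes, 9 in Pcdha, 21 in Pcdhb and 21 in Pcdhg.

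**Figure D1:**
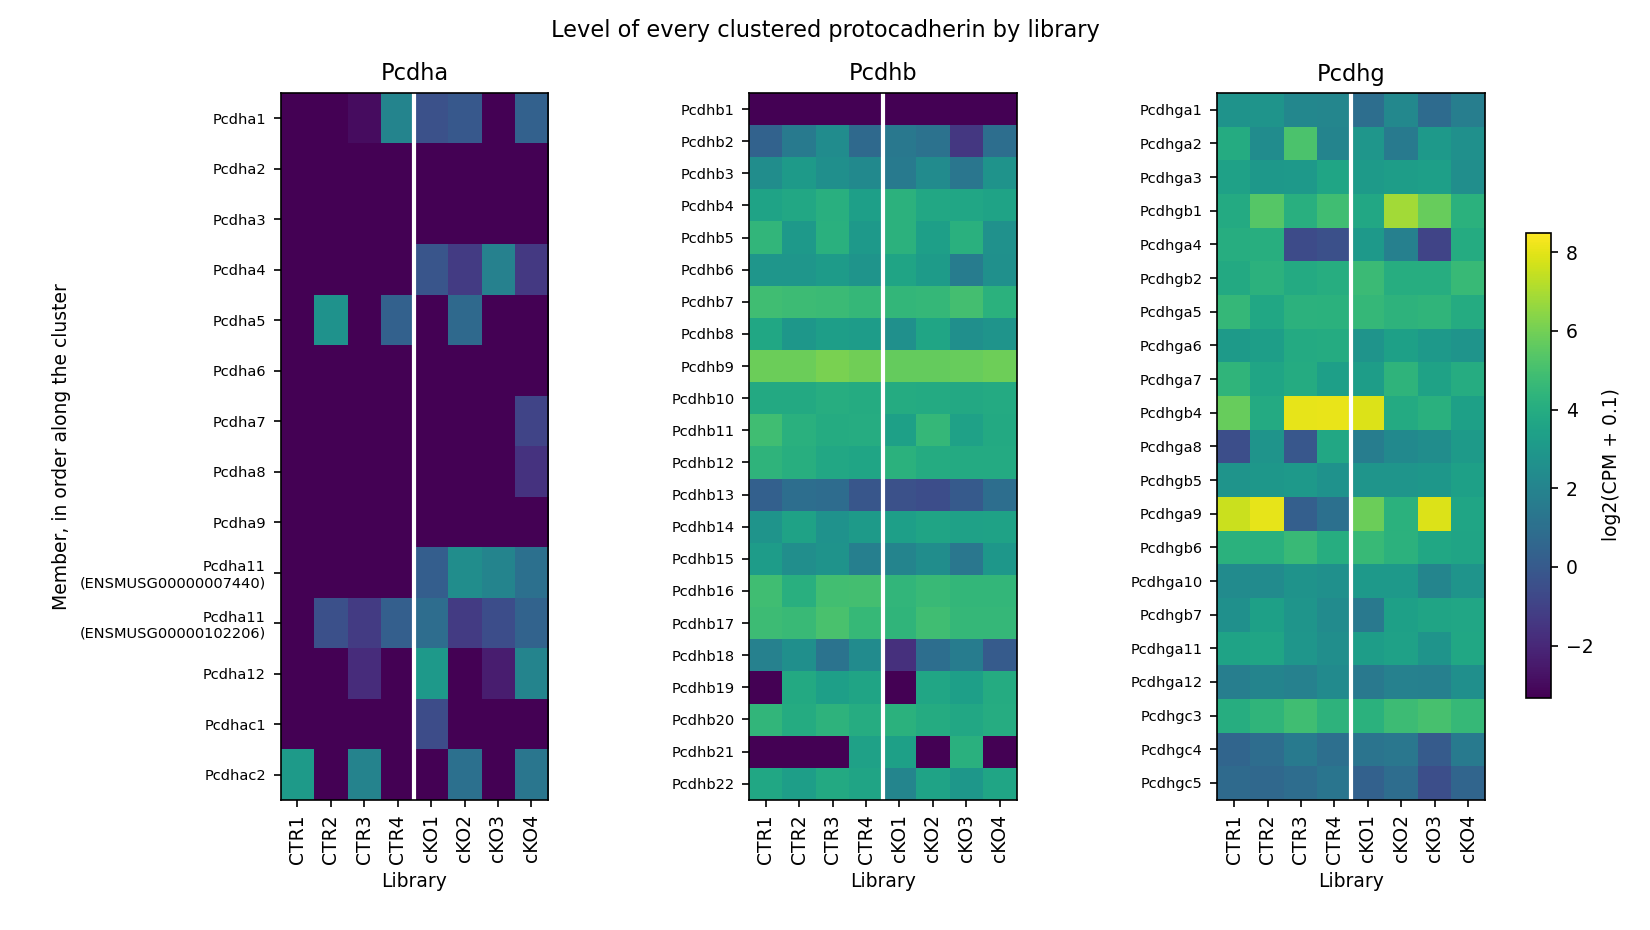
Level of each of the 57 members (rows, in order along each cluster) in the 8 libraries (columns; the white line separates CTR from cKO), as log2(CPM + 0.1), with the darkest color for members listed at 0. Among the Pcdhb rows Pcdhb9 is the brightest in every library and Pcdhb19 and Pcdhb21 hold libraries at 0, Pcdha rows are mostly dark with scattered values, and Pcdhgb4 and Pcdhga9 switch between the brightest and much lower values from library to library.

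In Pcdhb the same gene led in every library. This was Pcdhb9, with 1793, 1873, 2261 and 2254 counts in CTR1 to CTR4 and 1697, 1833, 1766 and 2243 in cKO1 to cKO4. It held 17.7% to 21.5% of the cluster's counts. Per kilobase of exon, the scale on which genes of different length can be compared, its mean level was 18.9 CPM per kilobase, above Pcdhb7 at 7.19, Pcdhb17 at 5.58, Pcdhb10 at 5.27 and Pcdhb12 at 5.23. The ranges of these 4 genes over the libraries overlapped one another, and the lowest Pcdhb9 value lay above all of them. Pcdhb16 and Pcdhb11, which are longer, belonged to the 5 members with the highest CPM and had 4.81 and 3.87 CPM per kilobase. In every library 5 members made up 50% of the cluster.

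The highest count of a Pcdhb member over the 8 libraries exceeded the lowest by less than 3 times for 12 of the 19 members with a count in every library. The most even was Pcdhb10, with 447 to 575 counts (1.29-fold), followed by Pcdhb9 (1.33-fold) and Pcdhb7, with 717 to 1010 counts (1.41-fold). The least even members were Pcdhb2, Pcdhb18, Pcdhb19 and Pcdhb21. Pcdhb2, the second gene of the cluster, had 9 to 170 counts (18.9-fold). Pcdhb19 was listed at 0 in CTR1 and cKO1, and had 478, 328 and 438 counts in CTR2 to CTR4 and 452, 330 and 591 in cKO2 to cKO4. Pcdhb21 was listed at 0 in 5 libraries and had 406 counts in CTR4, 346 in cKO1 and 594 in cKO3. It shares 455 bases with its neighbor Pcdhb22, and the sum of both was 324 to 855 counts. Pcdhb18 had 111, 190, 71 and 189 counts in CTR1 to CTR4 and 7, 65, 99 and 36 in cKO1 to cKO4, a 27.1-fold range. Pcdhb20, which lies between Pcdhb19 and Pcdhb21, had 441 to 665 counts.

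**Figure D2:**
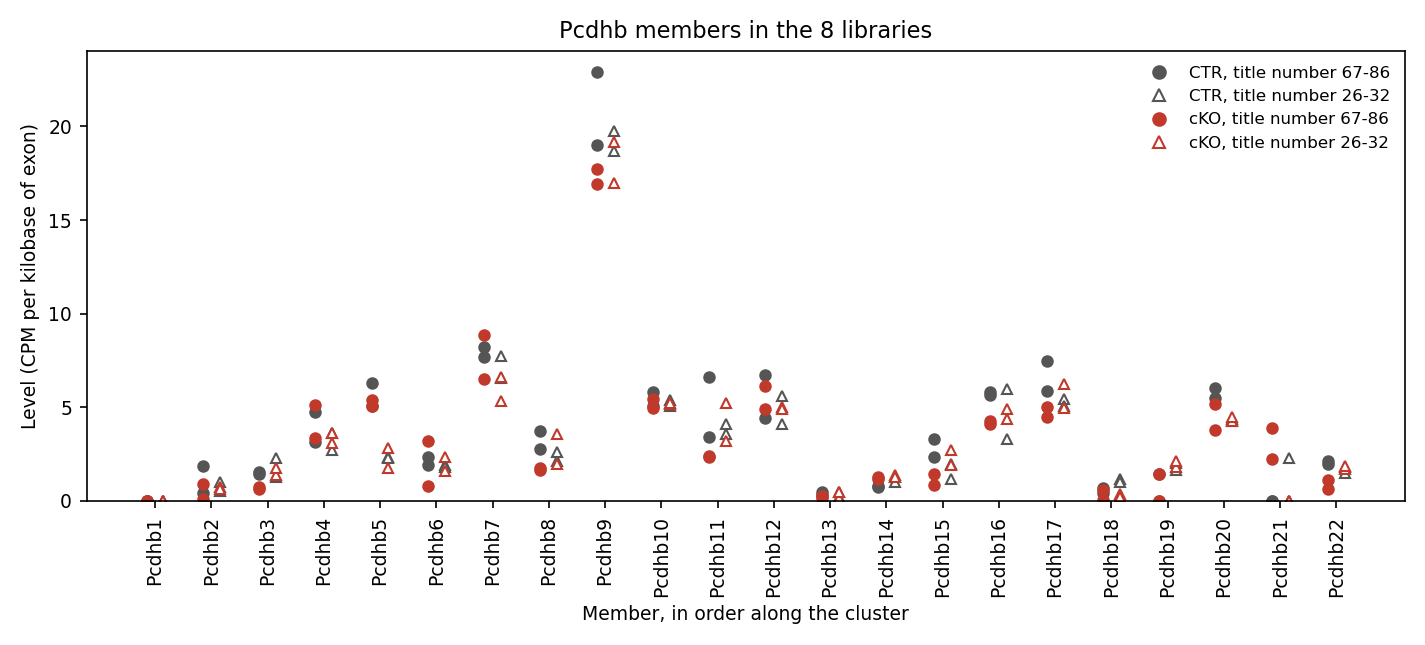
Level of each Pcdhb member (in order along the cluster) in CPM per kilobase of exon, with 1 symbol per library (grey for CTR, red for cKO; filled circles for title numbers 67 to 86, open triangles for 26 to 32). Pcdhb9 lies above all other members in all 8 libraries, and for Pcdhb5 the 4 filled circles lie above the 4 open triangles.

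The spread of the members was set against other genes of similar level. For the 16 Pcdhb members with a mean of 5 to 50 CPM, the coefficient of variation over the 8 libraries had a median of 27.0% (5.25% to 64.9%), and for the 15 such Pcdhg members it was 27.9% (17.3% to 101%). Over all 6873 genes in this range of level the median was 19.9%. The sum over Pcdhb varied by 7.85%, and Taf7, a gene of the general transcription machinery that lies between Pcdhb and Pcdhg, by 7.04%. No test was made of this difference, and members of a cluster are not independent of one another.

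Pcdhg had more counts than Pcdhb in 7 of the 8 libraries, with 8897 against 10413 in cKO4 as the exception, and its leading gene differed between libraries. Pcdhgb4 had 1634, 485, 8768 and 10258 counts in CTR1 to CTR4 and 7728, 521, 579 and 397 in cKO1 to cKO4. Pcdhga9 had 5748, 8703, 36 and 74 counts in CTR1 to CTR4 and 1862, 656, 7537 and 463 in cKO1 to cKO4. In CTR1 to CTR4, cKO1 and cKO3, 1 of the 2 led and the other was lower, at 36 counts (Pcdhga9 in CTR3) to 1862 counts (Pcdhga9 in cKO1). In cKO2 and cKO4 both were low. Pcdhgb1 led in cKO2, with 4151 counts against 439 to 1768 in the other libraries, and there the overlapping Pcdhgb8, annotated as a polymorphic pseudogene and therefore no member, had 4876 counts against 9 to 409 elsewhere. In cKO4 none of them stood out and Pcdhgb2 led with 945 counts.

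The counts of these 4 genes were then added, a combination chosen after their values were seen. Their sum was 8040, 10750, 9688 and 11554 in CTR1 to CTR4 and 10438, 10204, 9893 and 1591 in cKO1 to cKO4. In 7 libraries it stayed within 8040 to 11554 although the genes that carried it changed, and in cKO4 it was lower than in all others. The other 18 Pcdhg members together had 5809, 5900, 6628 and 6106 counts in CTR1 to CTR4 and 5617, 6440, 5348 and 7323 in cKO1 to cKO4. In counts cKO4 was the highest, and its library total was also the highest. After scaling, cKO4 was at 191 CPM, below CTR3 at 205 CPM. The part that the treatment of reads from shared exons has in these values was not tested, since the counts hold no position within a gene.

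**Figure D3:**
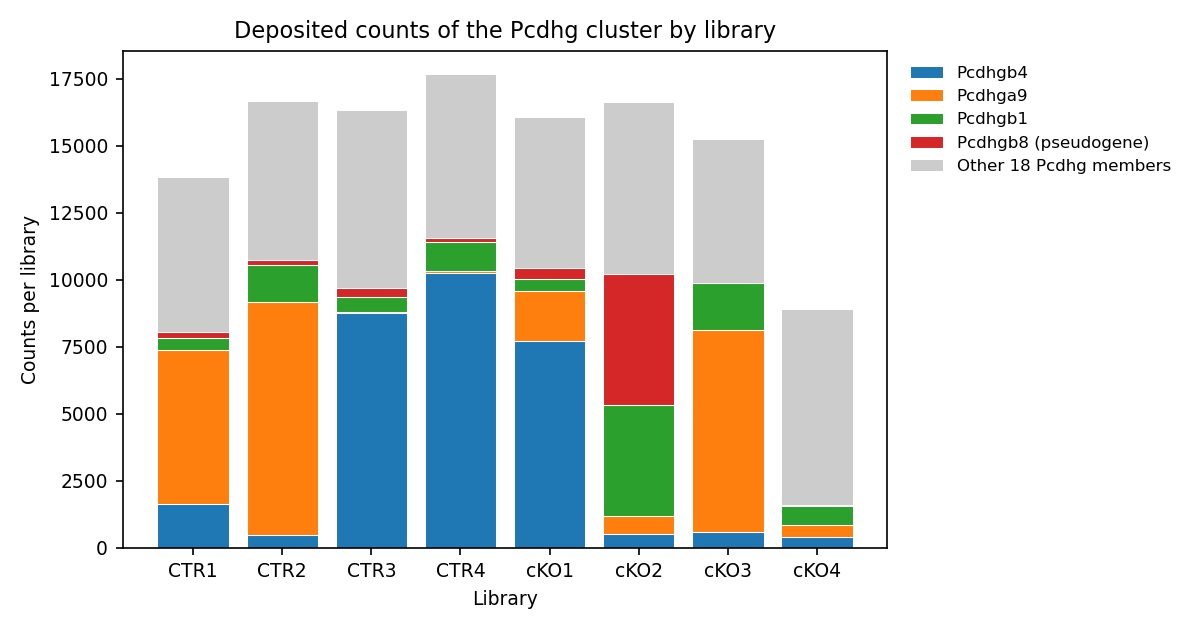
Deposited counts of the Pcdhg cluster in each library, stacked by Pcdhgb4, Pcdhga9, Pcdhgb1, the pseudogene Pcdhgb8 and the other 18 members. The gene that carries the largest share changes between libraries, the grey part stays at 5348 to 7323 counts, and the bar of cKO4 is the lowest.

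By subfamily, the 12 Pcdhga genes had 3633 to 11992 counts per library and the 6 Pcdhgb genes 3407 to 12979, and the order of these subfamilies differed between libraries with the leading gene. The 3 C-type genes Pcdhgc3, Pcdhgc4 and Pcdhgc5 had 593 to 1142 counts and varied by less. Pcdhgc3 held most of them, with 502, 693, 939 and 752 counts in CTR1 to CTR4 and 604, 957, 1091 and 938 in cKO1 to cKO4. Pcdhgc4, whose product is known for a role in neuronal survival, had 31 to 105 counts and Pcdhgc5 had 20 to 87. The antisense gene BC037039, which overlaps 1559 bases of Pcdhgc3, had 2422 to 3232 counts, more than Pcdhgc3 in every library. Whether the counting used strand is not given in the sources used here, so reads of these 1559 bases cannot be told apart. Of its 5499 exonic bases, Pcdhgc3 has 1821 that no other gene overlaps.

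Among the remaining Pcdhg members, Pcdhga5 was the most even, with 433 to 756 counts (1.75-fold), and belonged to the 5 with the highest means, at 4.13 CPM per kilobase. Pcdhg members varied by less than 3 times between libraries in 11 of 21 cases and by more than 10 times in 5, for which the largest ratio was 242-fold in Pcdhga9. The share of the leading gene ranged from 10.6% in cKO4 to 58.5% in CTR4, and 1 to 7 members made up 50% of the cluster.

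The Pcdha counts were low and the leading member differed between libraries. CTR1 had all of its 261 counts on the C-type gene Pcdhac2, and CTR3 had 121 of 138 there. CTR2 had 210 of 231 counts on Pcdha5, and CTR4 had 146 of 231 on Pcdha1. In cKO1 and cKO4, Pcdha12 led with 269 and 152 counts, and in cKO2 and cKO3 the gene ENSMUSG00000007440 led with 190 and 130. GENCODE M21 gives this gene and ENSMUSG00000102206 the same symbol, Pcdha11, so they are kept apart here by identifier. A library thus had counts on 1 to 8 Pcdha members, and 5 different genes led in the 8 libraries. The other C-type gene, Pcdhac1, was listed at 0 in all libraries but cKO1, where it had 19 counts.

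**Figure D4:**
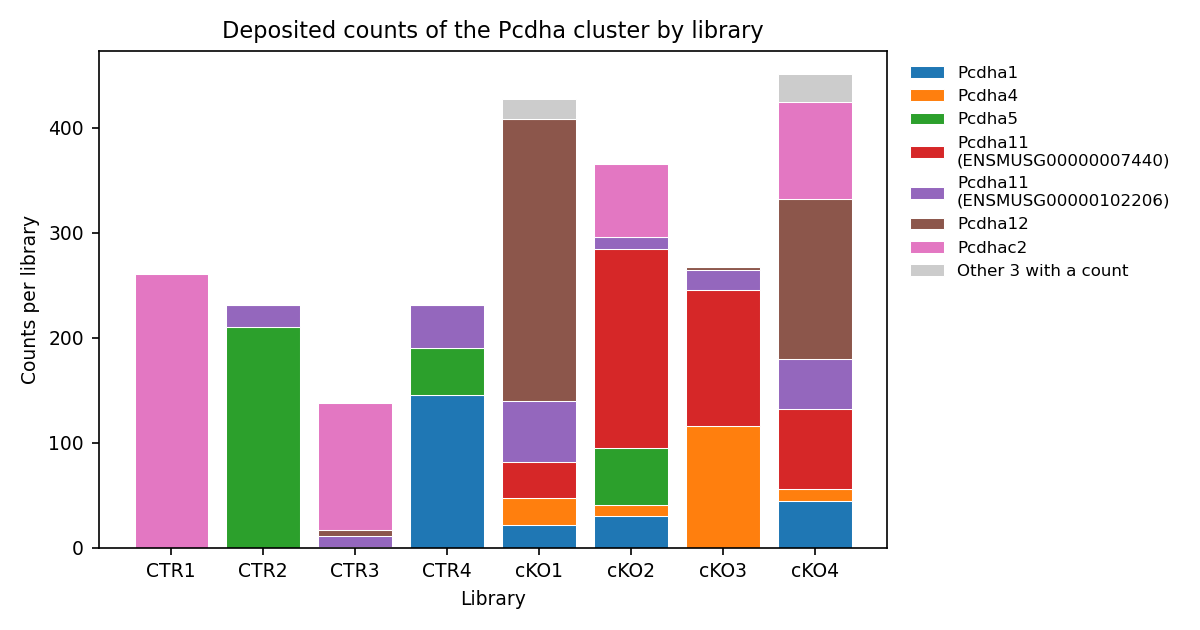
Deposited counts of the Pcdha cluster in each library, stacked by the 7 members with the most counts and the other 3 members with a count. The leading member differs between libraries, Pcdha4 (orange) and ENSMUSG00000007440 (red) appear in the 4 cKO bars alone, and the bars end at 138 to 261 counts for CTR and at 268 to 451 counts for cKO.

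Between genotypes, the summed Pcdha level was 6.49 ± 1.75 CPM (SD, n = 4 mice) in CTR MSPCs and 10.8 ± 2.06 CPM (SD, n = 4 mice) in cKO MSPCs, a log2 ratio of 0.76. Log2 ratios of cluster sums are differences between the group means of log2 CPM and so weigh a low library more than the ratio of the mean CPM does. In deposited counts the cKO libraries (268 to 451) lay above the CTR libraries (138 to 261), and after scaling CTR1 at 8.46 CPM lay above cKO3 at 8.23 CPM. The log2 ratio was 0.78 within the title numbers 67 to 86 and 0.74 within 26 to 32. Pcdha4 was listed at 0 in the 4 CTR libraries and had 25, 11, 116 and 11 counts in cKO1 to cKO4. ENSMUSG00000007440 was also listed at 0 in the 4 CTR libraries, and had 35, 190, 130 and 76 counts in cKO1 to cKO4. Without these 2 genes the cluster sum was 6.49 ± 1.75 CPM in CTR and 6.51 ± 4.77 CPM in cKO. The log2 ratio was then -0.56, a sign that rests on cKO3 at 0.676 CPM, and 0.33 when cKO3 was left out as well. No fold is given for them, since a 0 here can be a read assigned to another gene of the cluster. Of its 5768 exonic bases Pcdha4 has 404 to itself, and ENSMUSG00000007440 has 2499 of 5359.

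The other named Pcdha members went both ways. Pcdha12 had 0, 0, 6 and 0 counts in CTR1 to CTR4 and 269, 0, 3 and 152 in cKO1 to cKO4. Pcdha5 had 210 and 44 counts in CTR2 and CTR4, 54 in cKO2 and 0 in the 5 others. Pcdhac2 had 261 and 121 counts in CTR1 and CTR3, 70 and 93 in cKO2 and cKO4, and 0 in the 4 others. These genes overlapped between genotypes. The antisense gene Gm10544, which overlaps 852 bases of ENSMUSG00000102206, was counted 75 to 187 times in each CTR library and 133 to 302 times in each cKO library.

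The summed Pcdhb level was 309 ± 22.9 CPM (SD, n = 4 mice) in CTR MSPCs and 279 ± 10.6 CPM (SD, n = 4 mice) in cKO MSPCs, and the libraries overlapped (289 to 333 CPM in CTR and 271 to 294 CPM in cKO). The log2 ratio was -0.15, and it was -0.26 within the title numbers 67 to 86 and -0.036 within 26 to 32. Pcdhb9 also overlapped, at 61.4 ± 5.89 CPM in CTR against 54.1 ± 3.18 CPM in cKO. Of the 21 Pcdhb members tested, 5 had a positive log2 fold change, with a median of -0.19 beside -0.0025 over all 21310 genes. Pcdhb18 had the most negative value of the cluster, at 4.16 ± 1.59 CPM in CTR and 1.51 ± 1.22 CPM in cKO (log2 fold change -1.46, standard error 0.67), and Pcdhb21 the most positive at 1.39 (standard error 2.09). The Pcdhb21 value rests on the 3 libraries in which it is above 0.

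The summed Pcdhg level was 477 ± 26.9 CPM (SD, n = 4 mice) in CTR MSPCs and 377 ± 117 CPM (SD, n = 4 mice) in cKO MSPCs, a log2 ratio of -0.40. Of the cKO libraries, 2 lay within the range of CTR (476 CPM in cKO1 and 468 CPM in cKO3) and 2 lay below it (333 CPM in cKO2 and 232 CPM in cKO4). The latter are the cKO libraries with title numbers 26 to 32, within which the log2 ratio was -0.80, while it was 0.012 within 67 to 86. With the pseudogene Pcdhgb8 added, cKO2 had 471 CPM and the log2 ratio of the cluster was -0.28, so that cKO4 alone remained below the CTR libraries. Without cKO4 the log2 ratio of the members' sum was -0.18. Without Pcdhgb4, Pcdhga9 and Pcdhgb1 it was -0.053, with 184 ± 17.4 CPM in CTR and 177 ± 11.9 CPM in cKO.

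**Figure D5:**
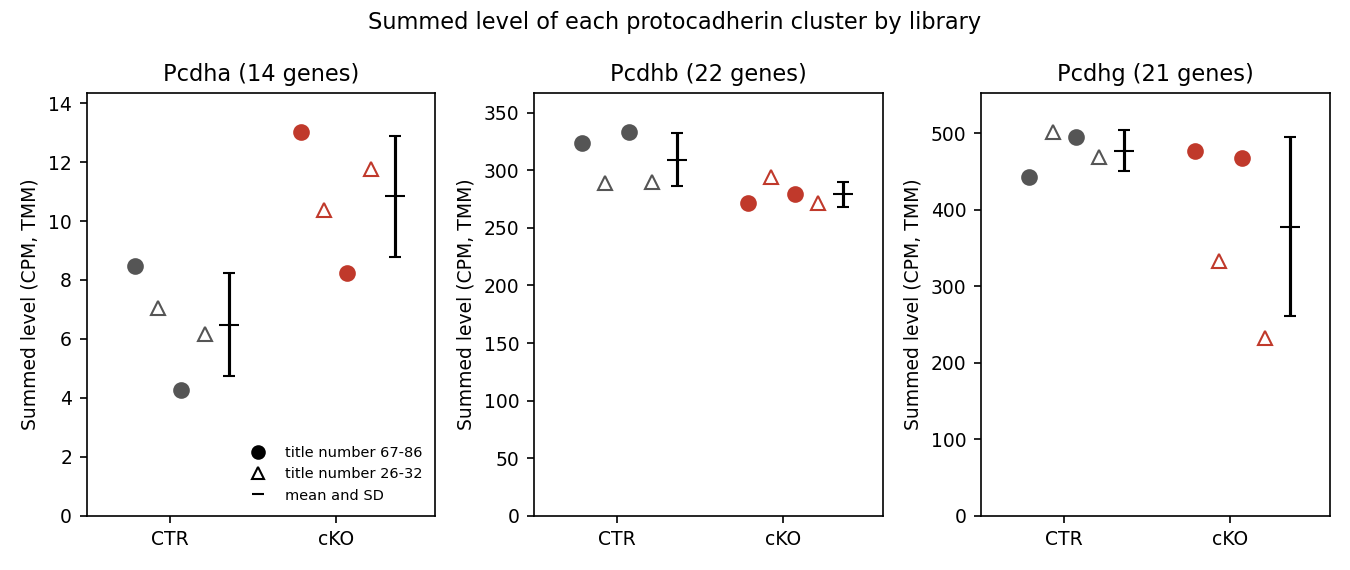
Summed level of the Pcdha, Pcdhb and Pcdhg members in CPM, with 1 point per library (grey for CTR, red for cKO; filled circles for title numbers 67 to 86, open triangles for 26 to 32) and the mean and SD of each genotype (n = 4). The Pcdha points lie at 4.27 to 8.46 CPM in CTR and 8.23 to 13.0 CPM in cKO, and in Pcdhg the 2 open cKO triangles lie below all other points.

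Gene by gene, the quasi-likelihood test of edgeR, adjusted by Benjamini and Hochberg over the 21310 genes, called 0 of the 51 members between genotypes at an adjusted p-value under 0.05, where 0.00469% of all genes were called. At an unadjusted p-value under 0.05 there were 5 members, beside 4.56% of all genes. limma-voom called 0 members (0.00469% of all genes). DESeq2 called 2 members, Pcdha4 and ENSMUSG00000007440, by the Wald test (0.174% of all genes), the likelihood ratio test (0.131%) and the latter test with a term for the title number (0.197%). The same 2 were the members whose 4 cKO libraries all lay above the 4 CTR libraries, as for 1.27% of all genes. Nothing is read from these counts, because the family was singled out on this contrast. Among the markers of other cells, the summed Schwann and glial markers lay at 39.6 to 47.9 CPM in CTR and 50.2 to 52.0 CPM in cKO, of which S100b made up 39.7 ± 1.66 CPM in CTR against 48.7 ± 1.23 CPM in cKO, with 1 of the 10 genes above 0 in every library and Ngfr and Foxd3 at 0 in all. None of the 8 neuronal markers had a count in every library, and Rbfox3, Snap25, Syt1 and Elavl4 were at 0 in all. Their part in the Pcdha values was not tested.

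The title number groups were compared with genotype as a term, a contrast that was not used to choose the members. edgeR called 0 of the 51 members (0.00939% of all genes) and had 5 members at an unadjusted p-value under 0.05 (8.71% of all genes). limma-voom likewise called 0 (0.00469%). Pcdhb5, Pcdhga2 and Pcdhga8 are described because DESeq2 called them, and were thus chosen after their values were seen. The Wald test called all 3 (1.69% of all genes) and the likelihood ratio test called Pcdhb5 and Pcdhga2 (1.52%). The p-values set the difference between the groups against the spread of single mice within them. They hold no replication of whatever the title number stands for, which the labels do not give.

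Pcdhb5 had 685, 579, 626 and 586 counts in CTR1, CTR3, cKO1 and cKO3, the libraries with title numbers 67 to 86, and 275, 300, 353 and 236 counts in CTR2, CTR4, cKO2 and cKO4. Both genotypes showed the difference and the groups did not overlap, with 19.3 ± 2.01 CPM against 8.14 ± 1.57 CPM (SD, n = 4 each). The log2 fold change was 1.24 (standard error 0.19), with an unadjusted p = 0.00012 and an adjusted p = 0.168 in edgeR, which did not pass the threshold. The adjusted p was 4.8e-06 in DESeq2's Wald test and 8.6e-06 in its likelihood ratio test, and lay between 0.112 and 0.406 in the 17 fits by edgeR and limma-voom, including those without 1 library each, in which the log2 fold change stayed between 1.12 and 1.41. All bases of Pcdhb5 are its own. Its neighbors did not share the pattern: Pcdhb4 had a log2 fold change of 0.32 (standard error 0.21) and Pcdhb6 of 0.11 (standard error 0.38), and the ranges of both title number groups overlapped in both genes.

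Pcdhga2 had 474, 1129, 244 and 259 counts in the libraries with title numbers 67 to 86 and 174, 146, 96 and 233 in those with 26 to 32, in the order CTR, CTR, cKO, cKO. The groups did not overlap, and CTR3 lay far above the rest (log2 fold change 1.63, standard error 0.45, adjusted p = 0.383 in edgeR, 0.012 in DESeq2's Wald test, 0.021 in its likelihood ratio test and 0.231 to 0.693 in the 17 fits by edgeR and limma-voom). Pcdhga8 had 19, 27, 101 and 177 counts with 67 to 86 and 228, 500, 169 and 325 with 26 to 32, with overlap (log2 fold change -2.16, standard error 0.70, adjusted p = 0.461 in edgeR, 0.021 in DESeq2's Wald test, 0.068 in its likelihood ratio test and 0.309 to 0.659 in the 17 fits by edgeR and limma-voom). Besides Pcdhb5 and Pcdhga2, higher in 67 to 86, the groups did not overlap for Pcdhb19 and Pcdhga12, which were lower there, so that 4 of 51 members did not overlap where 5.62% of all genes did not. The summed hematopoietic markers also differed between these groups without overlap, with 186 to 260 CPM for 67 to 86 and 70.4 to 180 CPM for 26 to 32, with the highest means for the hemoglobin genes Hbb-bs and Hba-a1. In CTR3 the immunoglobulin gene Igkc made up 84.3 of 210 CPM, and without Igkc the groups overlapped, at 126 to 260 CPM and 69.7 to 178 CPM. The summed osteoblast markers, mostly from Ibsp, did not overlap either, at 8488 to 11222 CPM for 67 to 86 and 11684 to 14471 CPM for 26 to 32. The part of both marker lists in the Pcdhb5 difference was not tested.

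Across the members tested, the median log2 fold change between title number groups was -0.51 in Pcdha (9 members), 0.033 in Pcdhb and -0.11 in Pcdhg, beside -0.042 over all genes. The interaction of genotype and title number group was past the threshold in edgeR for 0 of 51 members (0.0% of all genes), with 8 members at an unadjusted p-value under 0.05 (3.38% of all genes).

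The other genes around the family were followed in 4 lists, and markers of cell types in 8 more. Of the 12 unclustered protocadherins, which lie elsewhere in the genome, 5 had a count in every library, and Pcdh12 and Pcdh15 were at 0 in all. Pcdh18 had the highest mean CPM of the list, not corrected for length, with 108 ± 36.0 CPM in CTR and 72.6 ± 44.0 CPM in cKO, followed by Pcdh19 with 38.9 ± 4.27 CPM in CTR and 32.2 ± 6.86 CPM in cKO. Of the 9 large atypical cadherins, 4 had a count in every library, led by Fat1 (199 ± 30.9 CPM in CTR and 174 ± 19.8 CPM in cKO) and Fat4 (68.7 ± 10.3 and 63.8 ± 12.0 CPM), which act in planar polarity and growth control. The genotypes overlapped in all 4 of these genes.

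Factors that act on protocadherin promoters in neurons were present. Of the 28 architecture and promoter methylation factors in the table, 28 had a count in every library, with the highest mean CPM for the cohesin subunit Smc1a (103 ± 12.4 CPM in CTR and 110 ± 9.72 CPM in cKO) and the SETDB1 cofactor Atf7ip (94.3 ± 10.9 and 92.0 ± 18.8 CPM). Ctcf had 1532 to 2425 counts, and Dnmt3b, the methyltransferase that acts on these promoters in development, had 42 to 188 counts. All 23 signalling and processing partners had a count in every library, led by Rhoa (549 ± 32.4 and 541 ± 31.9 CPM) and the γ-secretase subunit Ncstn (491 ± 42.4 and 489 ± 18.1 CPM). In edgeR 0 of the 68 genes tested from these 4 lists were called in either contrast (0.00469% of all genes between genotypes and 0.00939% between title number groups). At an unadjusted p-value under 0.05 there were 5 between genotypes (4.56% of all genes) and 7 between title number groups (8.71%). DESeq2 called Cyfip2, a subunit of the WAVE actin regulator, between genotypes in its likelihood ratio test with a title number term (0.197% of all genes). It called 0 of the 68 in its other tests, as did limma-voom (0.00469% in each contrast). Those other DESeq2 tests called 0.174% and 0.131% of all genes between genotypes and 1.69% and 1.52% between title number groups.

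Of the cells that the sort should remove or that share the niche, the endothelial markers had 2 of 8 genes above 0 in every library and a summed level of 6.94 to 15.8 CPM, with Tek at 0 in all. All 7 osteoblast markers had a count in every library, with summed levels of 8488 to 14471 CPM, mostly from Ibsp, as had 5 of 7 smooth muscle and pericyte markers (463 to 703 CPM) and 3 of 6 chondrocyte markers (54.9 to 117 CPM), while Acan, Col9a1 and Matn3 were at 0. In edgeR 0 of the 56 marker genes tested were called in either contrast (0.00469% of all genes between genotypes and 0.00939% between title number groups). At an unadjusted p-value under 0.05 there were 6 between genotypes (4.56% of all genes) and 11 between title number groups (8.71%). limma-voom called 0 in either contrast (0.00469% of all genes in each). Between title number groups DESeq2 called Adipoq, Hbb-bs, Ibsp and Rgs5 in both of its tests and Myh11 in the Wald test. The Wald test called 1.69% of all genes there and the likelihood ratio test 1.52%. Between genotypes DESeq2 called Rgs5 in the likelihood ratio test with a title number term (0.197% of all genes). What part these differences between libraries have in the protocadherin values was not tested.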

How the data were processed

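RNA from sorted MSPCs of 8 mice was sequenced after poly-A selection as paired reads of 76 bases. The methods state that reads were trimmed and aligned by the authors with HISAT2 to GRCm38 (mm10), counted per gene with HTSeq-count on a GENCODE annotation, and that the authors tested genotypes with DESeq2 and a batch term that is not named. The deposited values are treated as estimated counts per gene without normalization. They are whole numbers, but low values favor odd numbers (3253 values of 5 and 1856 of 6), which plain counting of unique reads does not give. Genes with no base free of other genes on either strand also hold counts, which counting by strand could give for some of them.

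Symbols, gene types and coordinates were taken from GENCODE M21, whose release differs from that in the methods, for 52489 of 52636 identifiers. Genes with at least 10 counts over the 8 libraries were tested with edgeR 4.0.16 (TMM, glmQLFit and glmQLFTest, threshold 0.05 after Benjamini-Hochberg adjustment) in R 4.3.3, with DESeq2 1.42.0, limma 3.58.1, other scalings and filters, and each library left out as alternatives, in 41 fits. The filter sums over libraries and so keeps genes silent in 1 genotype. CPM per kilobase divides by the exonic bases of the gene. On simulated data, 200 changed genes were drawn from those above 1 CPM. For the comparison of genotypes edgeR recovered 45.5% of changes of 1 and 79.0% of changes of 2 on the log2 scale (20058 and 20110 genes, 4 and 9 false calls). For that of title numbers it recovered 39.0% and 81.0% (20099 and 20109 genes, 10 and 15 false calls). These rates do not cover genes below 1 CPM, among them Pcdha4 at a mean of 0.615 CPM. They were also not measured for the members, which vary more. The biological coefficient of variation, the spread between libraries that edgeR estimates, had a median of 0.222 over the genes above 1 CPM in the comparison of genotypes. Its median was 1.92 over the members tested in Pcdha, 0.324 in Pcdhb and 0.368 in Pcdhg.

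The members, the gene lists and the alternatives were chosen with earlier results of these data known. Members named with values are the 5 with the highest mean CPM in each cluster, the C-types Pcdhac1, Pcdhac2, Pcdhgc3, Pcdhgc4 and Pcdhgc5, and the 5 largest rises and falls between genotypes among members with at least 80 counts; others were named after their values were seen. From each list the 2 genes with the highest mean CPM are named, and others after their values were seen.

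The replicate numbers of the labels were checked for pairing. The correlation of deviations from the genotype means between same-numbered CTR and cKO libraries was 0.054, 0.101, 0.047 and -0.0020, so the numbers were not taken to pair the mice.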

Additional observations from a re-analysis of the deposited data

Results flagged for a closer look

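Within the 4 libraries of a genotype, each named member and each cluster sum was examined for a library far from the other 3, by the gap to its nearest neighbor divided by the range of the group, against Dixon's critical value for 4 samples. Of the 47 groups examined, 8 were past it. Chance gives about 1 in 20 for values with a normal distribution, which CPM with many zeros do not have. A group with 1 library above 0 and the others at 0 passes by construction, as for Pcdha5, Pcdha12, Pcdhac1 and Pcdhb21. No excess over chance is read from the 8.

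The Pcdha members were 5 of these. In 4 of them the library held nearly all counts of its genotype, namely Pcdha1 in CTR4 (0.992, 146 counts), Pcdha5 in cKO2 (1.0, 54 counts), Pcdha12 in CTR3 (1.0, 6 counts) and Pcdhac1 in cKO1 (1.0, 19 counts). Pcdha4 was high in cKO3 (0.855), at 3.56 CPM beside 0.287 to 0.761 CPM in the other cKO libraries. In Pcdhb, Pcdhb21 was high in CTR4 (1.0), at 10.9 CPM where the other CTR libraries were at 0, and Pcdhb16 was low in CTR2 (0.879), at 17.4 CPM beside 29.5 to 31.2 CPM. Pcdhgb4 was high in cKO1 (0.967), at 235 CPM beside 10.4 to 17.8 CPM in the other cKO libraries.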

How the results depend on the processing

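The count of members called between genotypes was 0 in edgeR under every scaling and filter, with a title number term and in limma-voom. It was 2 in DESeq2's Wald test (0.174% of all genes), likelihood ratio test (0.131%) and likelihood ratio test with a title number term (0.197%). Between title number groups it was 0 in edgeR and limma-voom, 3 in DESeq2's Wald test (1.69% of all genes) and 2 in its likelihood ratio test (1.52%). With the replicate number as a replicate block, edgeR called 0 members between genotypes. Nothing is read from the counts between genotypes, because the family was singled out on that contrast. Without 1 library each, both counts were 0 in all edgeR fits. DESeq2 was not refitted without a library. The log2 ratio of the cluster sums changed within the title numbers 67 to 86 and 26 to 32 to -0.26 and -0.036 in Pcdhb and to 0.012 and -0.80 in Pcdhg. It was -0.027 in Pcdhg without the leading member Pcdhgb4, and could not be computed for Pcdha without Pcdhac2, since CTR1 then is at 0. Further alternatives were chosen after seeing the data: without Pcdha4 and ENSMUSG00000007440 the log2 ratio of Pcdha was -0.56, and 0.33 without the library cKO3 too, with Pcdhgb8 that of Pcdhg was -0.28, and without Pcdhgb4, Pcdhga9 and Pcdhgb1 it was -0.053. With 1 library left out the log2 ratio ranged from 0.58 to 0.91 in Pcdha, -0.18 to -0.11 in Pcdhb and -0.53 (without cKO1) to -0.18 (without cKO4) in Pcdhg. The share of the member with the highest mean was 19.6% in Pcdhb and 24.3% per kilobase, and with 1 library left out it ranged from 18.2% to 32.5% for Pcdhac2, from 19.4% to 19.9% for Pcdhb9 and from 18.8% to 26.8% for Pcdhgb4. Of 425 log2 fold changes of 22 named members between genotypes under the alternatives, 410 moved by less than 1 SD.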
